A study of Mus musculus with 9 samples.

Results

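Expression of 8 astrocyte genes was followed through the 9 laser-captured mediobasal hypothalamus libraries of mice given AAV-GFP or AAV-Cre. The genes were taken by symbol from the 13588 entries of the deposited table, and all 8 had an entry and passed the filter on low values. Gfap, Serpina3n and Vim are genes that rise when astrocytes become reactive. Slc1a2, Slc1a3, Gja1, Aldh1l1 and Aqp4 are genes that serve the housekeeping of resting astrocytes. The set was put together with results of these same libraries already known, so the fold changes and FDR values below describe the genes and are not independent support for their direction.

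Astrocytes clear glutamate and potassium from the extracellular space, couple to each other through gap junctions and wrap blood vessels with endfeet rich in water channels. After injury, infection or inflammation they become reactive, a state known for more intermediate filament protein and for secreted protease inhibitors, and signaling through STAT3, NF-kB and TGF-beta receptors is known to take part. In the mediobasal hypothalamus the genes of intermediate filaments are also active in tanycytes, the glia that line the third ventricle.

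All mice were males of strain C57/BL6 homozygous for the floxed Snord116 allele (B6(Cg)-Snord116tm1Uta/J), so the controls carried the same allele as the treated mice. AAV-GFP or AAV-Cre was injected into the mediobasal hypothalamus at 10 to 12 weeks of age and brains were frozen 10 weeks after injection. The Cre vector was driven by a CAG promoter and the GFP vector by a CMV promoter, neither of them restricted to astrocytes. By the paper's methods the Cre vector was also injected at a higher titer than the GFP vector, so the groups were not matched in vector dose. The part of vector dose and promoter in the differences below was not tested. Groups were 3 mice with AAV-GFP, 3 mice with AAV-Cre labelled obese and 3 mice with AAV-Cre labelled nonobese, each sequenced as its own library. For the AAV-Cre mice, sample titles and weight labels contradict each other on which subset was obese, and the subsets are named here by the weight label. Captured regions were chosen by Cre staining of neighboring sections, or by position in AAV-GFP mice, and hold all the cells of the region, not sorted astrocytes.

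The deposited values are reads per gene over a library size that edgeR's TMM method had scaled, a form of CPM, and are called signal here. Libraries held between 3929672 and 5766994 reads on the listed entries. A floor of 3 reads corresponded to a signal between 0.525 and 0.786, which covers counting error only. The 8 genes lay above this floor in all 9 libraries, the lowest value being 52 reads for Gfap in AAV-GFP mouse 3. Differences are log2 fold changes (log2 FC) of signal + 1 from limma, fitted over 13506 entries with all 3 groups, and a gene is called when its Benjamini-Hochberg FDR is under 0.1. With 3 mice on each side, the smallest 2-sided p of an exact permutation test is 0.1, and every pair of groups without overlap reaches just that.

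Reads on the Cre transgene numbered 0 to 5 in AAV-GFP mice and 1011 to 37704 in AAV-Cre mice, and reads on Gfp numbered 317 to 350 in AAV-GFP mice and 0 in AAV-Cre mice. Snord116 itself was not analysed here. The feeding neuropeptide genes Pomc and Npy had reads in all 9 libraries, whereas Agrp was at 0 reads in 2 libraries and Nr5a1, a gene of the ventromedial nucleus, in 4. Mice 1 and 3 of the AAV-Cre subset labelled obese stood apart from the other libraries. Their summed signal over 9 MHC and interferon response genes was 5614 and 5437, against 151 to 295 in the other 7 libraries. Over 7 microglia markers it was 625 and 543 against 96.4 to 151, and over 4 plasma and B cell markers 2761 and 4864 against 1.75 to 70.1. These mice also had the fewest Cre reads of the AAV-Cre libraries, 5912 and 1011, against 19611 or more in the other 4. Against AAV-GFP, the log2 FCs of the 3 reactive genes and Aqp4 are given with and without these 2 mice. Other log2 FCs that involve the obese label include both mice unless stated.

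The promoters of 7 of the 8 genes were read from RefSeq on GRCm38.p6, from 250 bases before to 50 bases after the annotated start. Those of the 3 reactive genes, which were highest in the same group of mice, are shown together with that of Slc1a3, a glutamate transporter gene that limma called in no comparison. Capitals mark matches to the STAT motif TTCNNNGAA, which reads the same on both strands. The coordinates are chr11:102897151-102897450 (minus strand) for Gfap, chr12:104406458-104406757 (plus strand) for Serpina3n, chr2:13574061-13574360 (plus strand) for Vim and chr15:8710758-8711057 (minus strand) for Slc1a3.
Gfap: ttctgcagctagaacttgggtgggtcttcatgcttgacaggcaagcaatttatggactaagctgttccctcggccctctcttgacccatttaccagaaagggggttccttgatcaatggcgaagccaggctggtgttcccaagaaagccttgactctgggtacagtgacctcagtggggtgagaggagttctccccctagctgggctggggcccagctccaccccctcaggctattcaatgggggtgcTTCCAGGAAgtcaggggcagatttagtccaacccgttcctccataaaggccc
Serpina3n: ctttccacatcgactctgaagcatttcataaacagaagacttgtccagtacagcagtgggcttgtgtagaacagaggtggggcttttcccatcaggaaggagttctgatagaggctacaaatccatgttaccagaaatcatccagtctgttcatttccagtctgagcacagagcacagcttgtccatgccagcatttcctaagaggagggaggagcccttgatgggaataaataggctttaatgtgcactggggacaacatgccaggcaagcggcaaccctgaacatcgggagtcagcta
Vim: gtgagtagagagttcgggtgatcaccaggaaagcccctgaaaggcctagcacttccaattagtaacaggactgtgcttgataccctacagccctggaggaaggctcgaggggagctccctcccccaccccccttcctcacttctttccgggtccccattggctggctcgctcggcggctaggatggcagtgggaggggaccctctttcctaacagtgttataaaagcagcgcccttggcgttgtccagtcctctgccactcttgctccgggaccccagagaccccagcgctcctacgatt
Slc1a3: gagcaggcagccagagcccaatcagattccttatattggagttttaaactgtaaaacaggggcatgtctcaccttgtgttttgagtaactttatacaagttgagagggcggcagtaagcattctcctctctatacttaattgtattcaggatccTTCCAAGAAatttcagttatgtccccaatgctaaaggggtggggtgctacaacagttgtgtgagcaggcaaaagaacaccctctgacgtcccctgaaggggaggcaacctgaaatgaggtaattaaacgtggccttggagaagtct

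Gfap and Slc1a3 each held a single match to the STAT motif, TTCCAGGAA and TTCCAAGAA, and the windows of Serpina3n, Vim, Slc1a2, Gja1 and Aldh1l1 held none. The windows of Slc1a2 (chr2:102706188-102706487) and Aldh1l1 (chr6:90550543-90550842), like those of Gfap and Vim, lie inside the gene spans given below. Sequence at other starts of these genes was not searched. Of all 32851 promoter windows of this length, 8.3% held at least a match. The core of the interferon-stimulated response element, searched on both strands, had no match in the 7 windows and was found in 3.44% of all. TGANTCA, the AP-1 motif, matched in Gja1 alone, against 7.81% of all windows, and TATAAA, searched on both strands, matched in Vim on the strand shown and in Slc1a3 on the opposite strand, where it reads TTTATA above, against 13.6%.

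Per kilobase of exon, the 8 genes spanned a wide range of levels in AAV-GFP mice. Slc1a2, the main glutamate transporter of forebrain astrocytes, was highest at 111 ± 12.9 signal per kb (SD, n = 3). Slc1a3, the other astrocytic glutamate transporter, followed at 45.9 ± 3.32 and lay below Slc1a2 in every mouse. Serpina3n, which encodes a secreted serine protease inhibitor, reached 34.1 ± 13.7 and overlapped Slc1a3. Next came Aqp4, the endfoot water channel, at 15.3 ± 2.94, below Serpina3n without overlap. Gfap, the intermediate filament protein of astrocytes, stood at 12.1 ± 8.85, and Gja1, the gap junction protein connexin 43, at 10.9 ± 1.07. Gfap overlapped Aqp4, and Gja1 overlapped Gfap. Aldh1l1, a folate enzyme used as an astrocyte marker, at 5.42 ± 1.67 and Vim, an intermediate filament protein shared with endothelium, tanycytes and microglia, at 5.16 ± 0.269 were lowest and overlapped each other. Length here is the union of annotated exons, so a gene transcribed as short isoforms is understated.

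Gfap (ENSMUSG00000020932, chr11:102887336-102900912, minus strand) was higher in the obese-labelled AAV-Cre mice than in AAV-GFP mice. Its signal was 83.0, 60.3 and 10.1 in AAV-GFP mice 1 to 3, and 369, 129.8 and 640.1 in the obese-labelled mice. The groups did not overlap, and AAV-GFP mouse 3 was well below its companions, with 52 reads. The log2 FC was 3.03 (SE 0.55, limma FDR = 0.0119), and it ran from 2.13 without AAV-GFP mouse 3 to 3.66 without obese-labelled mouse 2. With mouse 2 as the only remaining obese-labelled mouse, taken to vary like the other groups, the log2 FC was 1.76 (FDR = 0.394). In bulk tissue, more astrocytes in the capture and more RNA per astrocyte cannot be told apart.

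Serpina3n (ENSMUSG00000021091, chr12:104406729-104414329, plus strand) was the most even of the reactive genes across the obese-labelled mice. It measured 102.7, 57.4 and 50.9 in AAV-GFP mice and 210.6, 168.4 and 220.5 in obese-labelled mice. All 3 obese-labelled mice lay above the AAV-GFP range. The log2 FC was 1.55 (SE 0.31, limma FDR = 0.0223). Mouse 2 on its own gave a log2 FC of 1.32 (FDR = 0.263).

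Vim (ENSMUSG00000026728, chr2:13573927-13582826, plus strand) did not pass the test. Its signal was 25.9, 23.7 and 23.7 in AAV-GFP mice, a narrow range, and 131.6, 24.3 and 99.2 in obese-labelled mice. Mice 1 and 3 were several-fold higher and mouse 2 sat inside the AAV-GFP range. The log2 FC was 1.45 (SE 0.47, limma FDR = 0.237), and with mouse 2 alone it was -0.01. On the recovered reads Vim passed by edgeR's likelihood ratio test (FDR = 0.029) and by DESeq2 (FDR = 0.0233), and it missed by edgeR's quasi-likelihood test (FDR = 0.154).

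**Figure D1:**
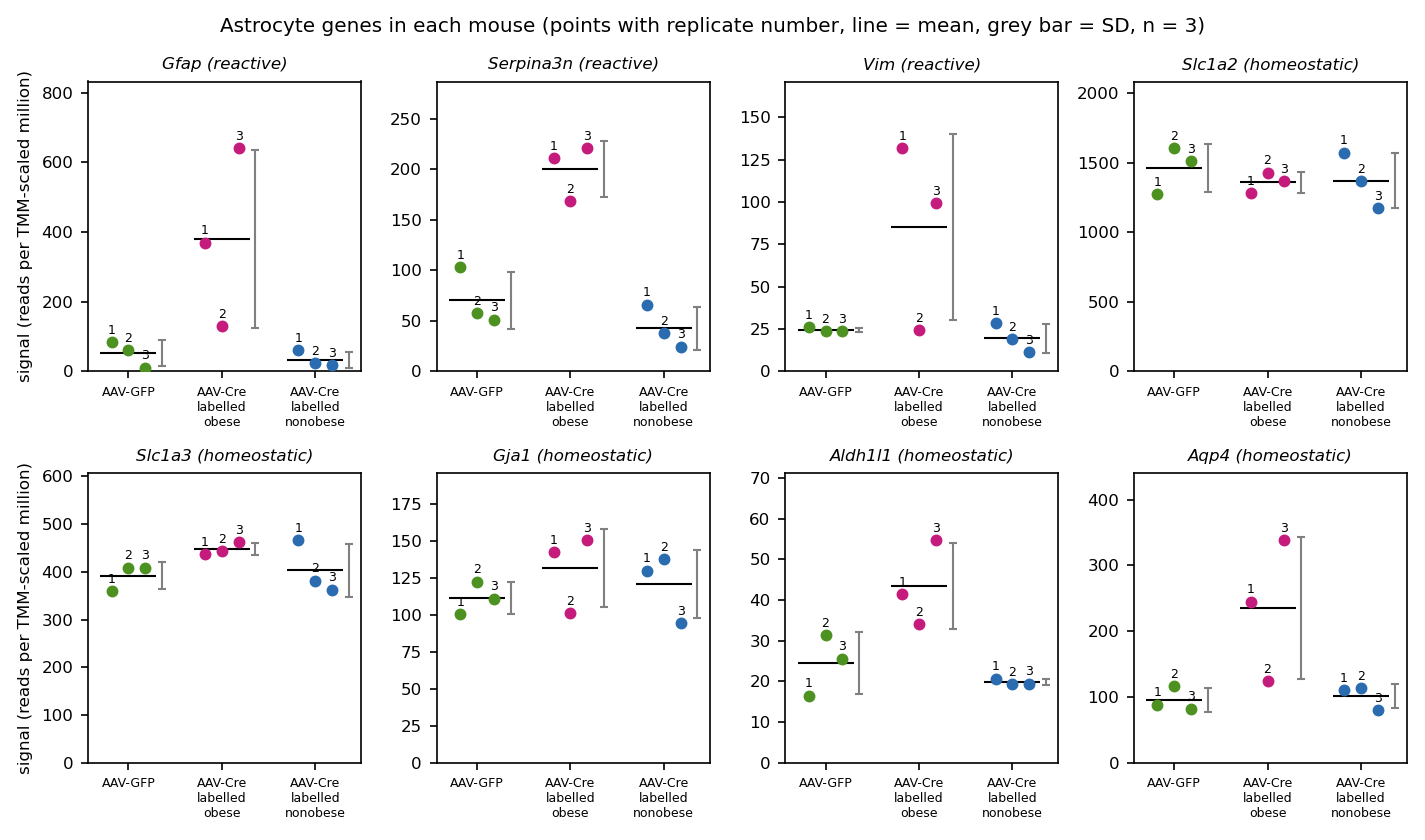
Signal (TMM-scaled CPM, vertical axes from 0) of the 8 genes in each of 9 mice, by group, with points numbered by replicate, the group mean as a line and the SD (n = 3) as a grey bar. Gfap and Serpina3n of the 3 obese-labelled mice lie above all AAV-GFP mice, Vim of mouse 2 (24.3) does not, and the Slc1a2 values of all groups share the range 1173 to 1604.

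Of the homeostatic genes, the water channel gene Aqp4 (ENSMUSG00000024411, chromosome 18) was called higher in the obese-labelled mice. It measured 88.0, 116.4 and 82.1 in AAV-GFP mice and 244.6, 123.5 and 338.7 in obese-labelled mice. The groups did not overlap, though mouse 2 was only just above the highest AAV-GFP mouse. The log2 FC was 1.19 (SE 0.27, limma FDR = 0.0559), and 0.38 (FDR = 0.675) with mouse 2 alone. Its call was also lost with a pseudocount of 0.1 (limma FDR = 0.121) and with only these 2 groups in the fit (FDR = 0.111).

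Aldh1l1 (ENSMUSG00000030088, chr6:90486427-90600203, plus strand) had a signal of 16.5, 31.4 and 25.6 in AAV-GFP mice and of 41.4, 34.0 and 54.8 in obese-labelled mice. The groups were apart, but the log2 FC of 0.82 (SE 0.38) did not pass (limma FDR = 0.466). Aldh1l1 overlaps 3 other annotated genes, Gm45901 and Gm44236 on its strand and Gm15756 opposite. Slc1a3 overlaps Gm37310 on its strand, and Gfap, Slc1a2 and Aqp4 each overlap a gene on the opposite strand. Their values may include reads of these genes or miss reads left unassigned, and whether the reads were counted by strand is not given in the sources used here.

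The other homeostatic genes stayed close to AAV-GFP. Slc1a2 (ENSMUSG00000005089, chr2:102658659-102790784, plus strand) measured 1274, 1604 and 1509 in AAV-GFP mice and 1279, 1428 and 1368 in obese-labelled mice, and the groups overlapped. Its log2 FC was -0.10, with a 95% interval from -0.39 to 0.18. Slc1a3 (ENSMUSG00000005360, chr15:8634124-8710764, minus strand) measured 359.3, 408.4 and 408.4 in AAV-GFP mice and 436.9, 443.0 and 461.4 in obese-labelled mice. Although the Slc1a3 groups did not overlap, its log2 FC was 0.19 (95% interval -0.12 to 0.50, limma FDR = 0.72). Gja1 (ENSMUSG00000050953, chr10:56377330-56402513, plus strand) measured 100.7, 122.7 and 111.1 in AAV-GFP mice and 142.9, 101.4 and 151.0 in obese-labelled mice. For Gja1 the groups overlapped, with a log2 FC of 0.22 (95% interval -0.23 to 0.67, limma FDR = 0.792). Each of these intervals leaves out a doubling of signal plus 1, which would be 1 on this scale.

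In all, 3 of the 8 genes (Gfap, Serpina3n and Aqp4) were called higher and 0 lower in obese-labelled mice than in AAV-GFP mice, against 0.422% of all tested entries called higher and 0.133% called lower. Groups without overlap and higher in obese-labelled mice were seen for 5 of the 8, against 7.18% of all entries. The median log2 FC over all entries was -0.04. No gene was called when either mouse 1 or mouse 3 of the obese label was left out, and only Gfap was called without AAV-GFP mouse 3. The log2 FCs without mouse 1 or mouse 3 were 2.91 and 2.51 for Gfap and 1.51 and 1.48 for Serpina3n.

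Mice 1 and 3, which carried the high immune gene levels, were also the mice with the highest Gfap, Serpina3n, Vim, Aqp4, Aldh1l1 and Gja1. They did not hold the highest Slc1a2 or Slc1a3. Their endothelium marker sum was 159 and 181 against 85.3 to 131 in the other libraries. Tanycyte and ependyma markers, of which 3 of 7 had an entry, summed to 50.4 and 30.0 in these mice and to 20.6 to 47.5 in AAV-GFP mice. The tanycyte gene Rax was without an entry. In mouse 2 the MHC and interferon sum was 285 and the microglia sum 125, both within the AAV-GFP range of 177 to 295 and 106 to 151. In that mouse the signal of Gfap, 129.8, and of Serpina3n, 168.4, was still above every AAV-GFP and nonobese-labelled mouse. The T cell markers Cd3e, Cd3g and Cd8a were at 0 reads in it. The plasma and B cell sum of mouse 2, 70.1, was however above the 1.75 to 7.09 of AAV-GFP mice and the 29.9 to 44.2 of nonobese-labelled mice, and its endothelium sum, 131, was above the AAV-GFP range of 85.3 to 119.

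Neuron and oligodendrocyte markers were lower in some of these libraries. The neuron sum was 1960 and 1898 in mice 1 and 3 and 2298 to 2822 in the other 7 libraries. The oligodendrocyte sum was 1080, 835 and 1055 in obese-labelled mice, below the 1179 to 1782 of AAV-GFP mice. The sum of nonobese-labelled mouse 2, 1160, was also below the AAV-GFP mice. Of 6 oligodendrocyte markers limma called 0 in obese-labelled mice against AAV-GFP, where 0.422% of all entries were called higher and 0.133% lower. With an unadjusted limma p below 0.05 there were 4 lower, against 9.88% of all entries in either direction. The part of immune, endothelial, tanycyte, neuron and oligodendrocyte content in the values of Gfap, Serpina3n, Vim and Aqp4 was not tested.

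**Figure D2:**
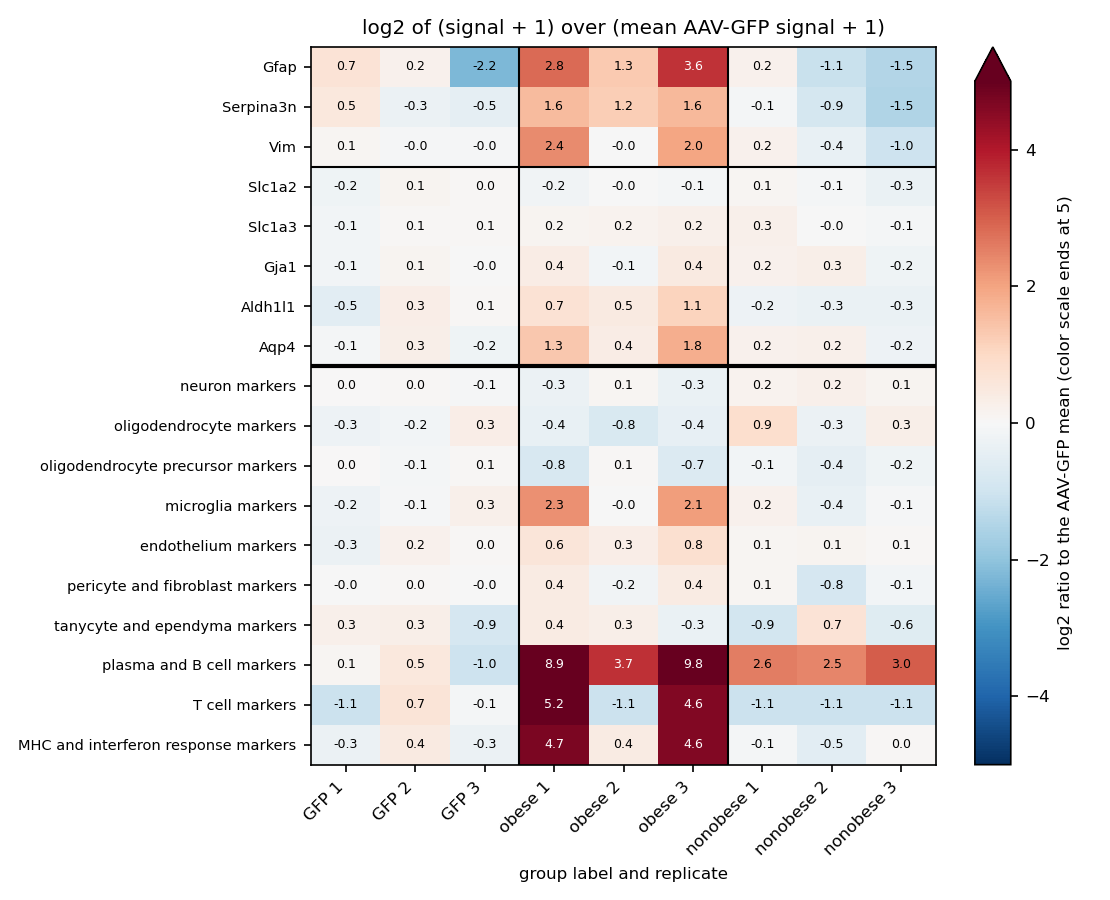
Log2 of signal + 1 over the mean AAV-GFP signal + 1 in each of 9 libraries (columns, by group label and replicate), for the 8 genes (upper rows) and the summed signal of marker lists (lower rows), with red above and blue below the AAV-GFP mean and the color scale ending at 5. Mice 1 and 3 labelled obese reach 2.8 and 3.6 for Gfap and 4.7 and 4.6 for the MHC and interferon list, whereas mouse 2 has 1.3 and 0.4.

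In nonobese-labelled AAV-Cre mice none of the reactive genes was called against AAV-GFP mice, which does not show that their levels were equal. Gfap was 60.0, 22.8 and 17.7, with every value inside the AAV-GFP range, and its log2 FC was -0.36 (95% interval -1.50 to 0.79). Serpina3n was 66.0, 37.7 and 24.3, so that mice 2 and 3 lay under the lowest AAV-GFP mouse. Its log2 FC was -0.75 (95% interval -1.38 to -0.12, limma FDR = 0.999). Vim was 28.3, 18.9 and 11.3, with a log2 FC of -0.40.

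Homeostatic genes in the nonobese-labelled mice overlapped AAV-GFP throughout. Slc1a2 measured 1573, 1368 and 1173 and Slc1a3 466.9, 381.6 and 362.6. Gja1 measured 130.0, 138.0 and 94.7 and Aqp4 110.4, 112.9 and 80.2. Aldh1l1 was tight at 20.6, 19.4 and 19.4. Their log2 FCs ran from -0.25 for Aldh1l1 to 0.10 for Gja1. By limma 0 of the 8 genes were called, against 0.0148% of all entries. Serpina3n, lower, was the 1 gene with an unadjusted p under 0.05, against 2.27% of all entries. DESeq2 and the quasi-likelihood and likelihood ratio tests of edgeR also called 0 of the 8, against 0.0148%, 0.0148% and 0.0444% of all entries.

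With all 6 AAV-Cre mice set against AAV-GFP as the average of their subsets, a difference that swapping the weight labels does not alter, 0 of the 8 genes were called by limma, against 0.0444% of all entries. The count was also 0 by edgeR's quasi-likelihood test and its likelihood ratio test, against 0.0296% and 0.104% of all entries. DESeq2 called 0 as well, against 0.134% of the 7482 entries to which it gave an FDR. Gfap had a log2 FC of 1.33 (95% interval 0.34 to 2.33) and Aqp4 of 0.64 (95% interval 0.15 to 1.12). The Gfap value was 0.44 without AAV-GFP mouse 3 and 1.90 without AAV-GFP mouse 1. The limma intervals rest on a spread moderated over all entries, not only on that of these mice. Both genes overlapped between the groups, and exact permutation tests gave p = 0.357 for Gfap and p = 0.262 for Aqp4. These 2 were the genes with an unadjusted limma p below 0.05, against 4.31% of all entries, and both had a limma FDR of 0.991. Serpina3n and Vim had log2 FCs of 0.40 and 0.53. For the other 4 homeostatic genes the log2 FC lay between -0.10 and 0.29. Among the 6 AAV-Cre mice, Gfap ran from 17.7 to 640.1, a range that held all of the AAV-GFP values but that of mouse 3. These comparisons share the AAV-GFP mice.

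The subsets of AAV-Cre mice were also compared with each other. Here 4 of the 8 genes, the 3 reactive genes and Aqp4, were called lower in nonobese-labelled mice, and 0 higher, against 0.733% and 0.215% of all entries. Gfap had a log2 FC of -3.39 (SE 0.55, limma FDR = 0.00668) and Serpina3n of -2.31 (SE 0.31, FDR = 0.00109), with no overlap in either. Vim had a log2 FC of -1.85 (limma FDR = 0.0785), although mouse 1 labelled nonobese, at 28.3, was above mouse 2 labelled obese, at 24.3. Aqp4 had a log2 FC of -1.11 (limma FDR = 0.0647) with the groups apart.

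Aldh1l1 did not overlap between subsets and was lower with the nonobese label, with a log2 FC of -1.07 that did not pass (limma FDR = 0.248). Slc1a2, Slc1a3 and Gja1 overlapped between subsets, with log2 FCs of 0.00, -0.16 and -0.12. Their 95% intervals ran from -0.28 to 0.29, from -0.47 to 0.16 and from -0.57 to 0.33. With mouse 2 as the only obese-labelled mouse, the log2 FC was -2.12 for Gfap, -0.39 for Vim and -0.30 for Aqp4. Serpina3n of that mouse, at 168.4, was above the nonobese-labelled range of 24.3 to 66.0. A single mouse cannot show whether the calls remain.

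**Figure D3:**
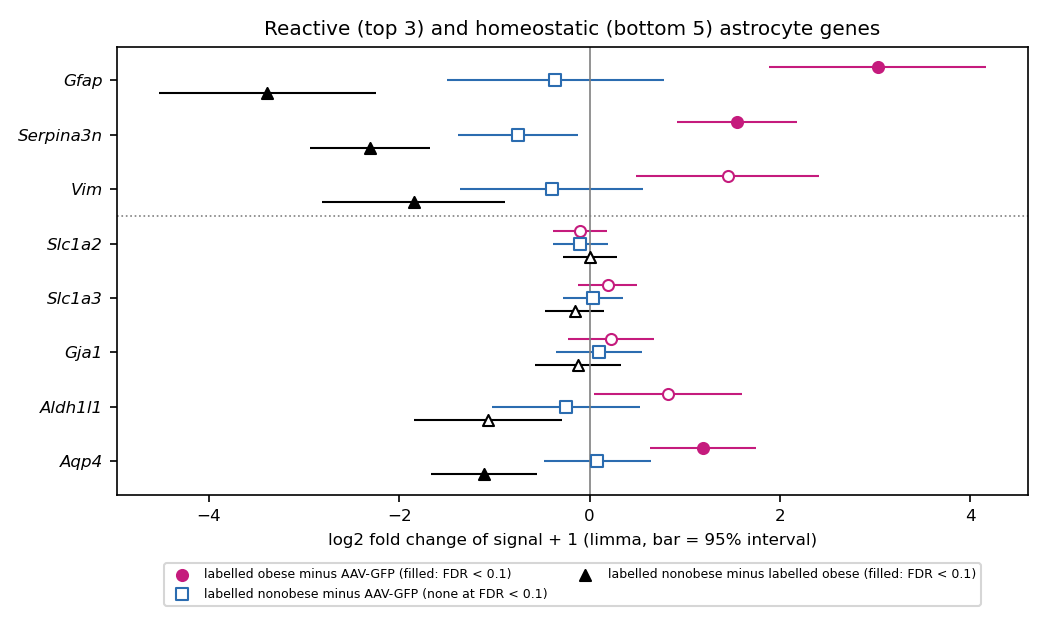
Log2 FC of signal + 1 (horizontal axis) with 95% intervals from limma for the 3 reactive and 5 homeostatic genes in 3 comparisons, filled where FDR is under 0.1. Gfap has the widest separation, 3.03 in obese-labelled mice and -0.36 in nonobese-labelled mice against AAV-GFP, and the Slc1a2 values lie between -0.10 and 0.00.

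Relations within a library do not depend on how libraries were scaled. Per 100 reads of Slc1a2 there were 6.52, 3.76 and 0.669 reads of Gfap in AAV-GFP mice and 28.8, 9.09 and 46.8 in obese-labelled mice. In nonobese-labelled mice they numbered 3.82, 1.67 and 1.51. The obese-labelled mice were thus above all others also in this ratio. Reads of the 3 reactive genes made up 10.3%, 5.84% and 3.81% of the reads of the 8 genes in AAV-GFP mice, 24.9%, 13.1% and 28.8% in obese-labelled mice and 6.29%, 3.78% and 2.99% in nonobese-labelled mice.

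On the log2 scale, the mean of the reactive genes minus the mean of the homeostatic genes was -1.27, -2.16 and -2.83 in AAV-GFP mice. It was -0.15, -1.24 and -0.23 in obese-labelled mice and -1.93, -2.74 and -3.03 in nonobese-labelled mice. Mouse 2 labelled obese, at -1.24, and AAV-GFP mouse 1, at -1.27, were nearly equal, so most of the separation of these groups came from mice 1 and 3. No test was made on this difference, because the genes were chosen with results known.

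Other astrocyte genes were read from 6 lists. The 29 further homeostatic genes include the glutamine synthetase gene Glul, the potassium channel gene Kcnj10 and Apoe. Of these 29, limma called 0 in obese-labelled mice against AAV-GFP, where 0.422% of all entries were called higher and 0.133% lower. A count of 0 among 29 genes is near those shares. Their median log2 FC was 0.14. With an unadjusted p below 0.05 there were 5 higher and 1 lower, against 9.88% of all entries in either direction. Neither edgeR test called any of the 29, against 0.689% of all entries by the quasi-likelihood test and 1.93% by the likelihood ratio test. DESeq2 called 3 higher, against 2.04% of all entries. In nonobese-labelled mice against obese, limma called 1 lower and 0 higher, against 0.733% and 0.215% of all entries. The gene was Apoe, which carries lipids between astrocytes and neurons and is also made by microglia. Apoe was 3995, 1928 and 6132 in obese-labelled mice, 2139, 2109 and 2206 in AAV-GFP mice and 2188, 1659 and 1976 in nonobese-labelled mice. Its log2 FC between subsets was -0.91 (limma FDR = 0.0912), and mouse 2 labelled obese lay below the AAV-GFP mice.

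Of 10 genes shared by reactive astrocytes of several models, 5 had an entry, and Lcn2, Timp1, Steap4, Hspb1 and Aspg had none. In obese-labelled mice 1 of the 5 was called higher and 0 lower, against 0.422% and 0.133% of all entries, and the median log2 FC was 1.20. The gene was Cd44, a hyaluronan receptor that leukocytes carry too. It measured 0.997, 7.28 and 2.14 in AAV-GFP mice, 58.0, 24.1 and 46.0 in obese-labelled mice and 2.97, 0 and 2.13 in nonobese-labelled mice. The groups were apart, mouse 2 included, with a log2 FC of 3.46 against AAV-GFP (limma FDR = 0.0482) and of -4.15 between subsets (FDR = 0.00786).

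Of 11 tested genes of the A1 type, known from astrocytes exposed to inflammatory signals, 3 were called higher in obese-labelled mice and 0 lower, again against 0.422% and 0.133% of all entries. They were Gbp2, an interferon-induced GTPase (log2 FC 4.39, limma FDR = 0.0559), Psmb8, an immunoproteasome subunit (3.87, FDR = 0.0224), and H2-D1, an MHC class I heavy chain (2.86, FDR = 0.0279). Both edgeR tests called 6 of the 11 and DESeq2 5, where the quasi-likelihood test called 0.689%, the likelihood ratio test 1.93% and DESeq2 2.04% of all entries. These genes are made by many cells under interferon, and Gbp2 and H2-D1 also stand in the MHC and interferon list. Gbp2 measured 350 and 333 in mice 1 and 3 and 7.26 in mouse 2, inside the AAV-GFP range of 1.25 to 9.77. H2-D1 in mouse 2, at 53.1, was also within AAV-GFP, and Psmb8, at 12.5, was above the highest AAV-GFP mouse at 6.13. Between subsets 4 of the 11 were called lower in nonobese-labelled mice, against 0.733% of all entries, with Iigp1, an immunity-related GTPase, as the fourth (log2 FC -4.76, limma FDR = 0.0514). Without mice 1 and 3, mouse 2 is the only obese-labelled mouse, so calls in that fit cannot show whether these changes remain. In mouse 2, Cd44, at 24.1, was above the highest AAV-GFP mouse, at 7.28, as Psmb8 was, while Gbp2, H2-D1 and Iigp1 were not. Set against nonobese-labelled mice, Cd44, Psmb8, H2-D1 and Iigp1 of mouse 2 were above every value, and Gbp2 was not.

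The remaining lists gave few calls, and lists this short would hold few at the shares over all entries. In obese-labelled mice against AAV-GFP, limma called 0.422% of all entries higher and 0.133% lower. In either direction edgeR's quasi-likelihood test called 0.689%, its likelihood ratio test 1.93% and DESeq2 2.04%. Of 12 genes of the A2 type only 2 had an entry and 0 was called by limma, edgeR or DESeq2, and S100a10, a calcium-binding protein, had an unadjusted p under 0.05 with a log2 FC of 1.73 (limma FDR = 0.49). The intermediate filament partners Nes, Synm and Plec were not called by these tools either, nor under an unadjusted p of 0.05. Plec, the filament linker plectin, was 364, 311 and 254 in AAV-GFP mice and 246, 311 and 240.5 in obese-labelled mice. Of 14 receptors and factors known to act upstream of astrocyte reactivity, limma and edgeR's quasi-likelihood test called 0 in obese-labelled mice. With an unadjusted p below 0.05 there were 5 higher, against 9.88% of all entries in either direction. The likelihood ratio test of edgeR called 2 and DESeq2 3, against 1.93% and 2.04% of all entries. Socs3, a feedback inhibitor of cytokine and leptin receptor signaling that was chosen for naming after its values were seen, had a log2 FC of 2.36 in obese-labelled mice (limma FDR = 0.254) and of 1.02 in nonobese-labelled mice (FDR = 0.999) against AAV-GFP.

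Between subsets, limma called 2 of these 14 lower in nonobese-labelled mice and 0 higher, against 0.733% and 0.215% of all entries. Stat3, the transcription factor of cytokine receptor signaling, was 178, 87.4 and 204 in obese-labelled mice and 75.8, 60.8 and 61.9 in nonobese-labelled mice, with AAV-GFP mice at 97.7, 93.3 and 107. Its log2 FC was -1.15 (limma FDR = 0.0386). Nfkb1, a subunit of NF-kB, was 41.6, 32.7 and 52.0 in obese-labelled mice, 11.2, 12.8 and 14.1 in nonobese-labelled mice and 35.9, 31.2 and 24.3 in AAV-GFP mice. For Nfkb1 the log2 FC was -1.63 (limma FDR = 0.049), and every nonobese-labelled mouse was also below every AAV-GFP mouse. Against AAV-GFP, the log2 FC in nonobese-labelled mice was -0.58 for Stat3 and -1.19 for Nfkb1, and in obese-labelled mice 0.56 and 0.45. In nonobese-labelled mice set against AAV-GFP, limma called 0 of the 14, where 0.0148% of all entries were called. At an unadjusted limma p below 0.05, 4 of the 14 were lower, against 2.27% of all entries in either direction.

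**Figure D4:**
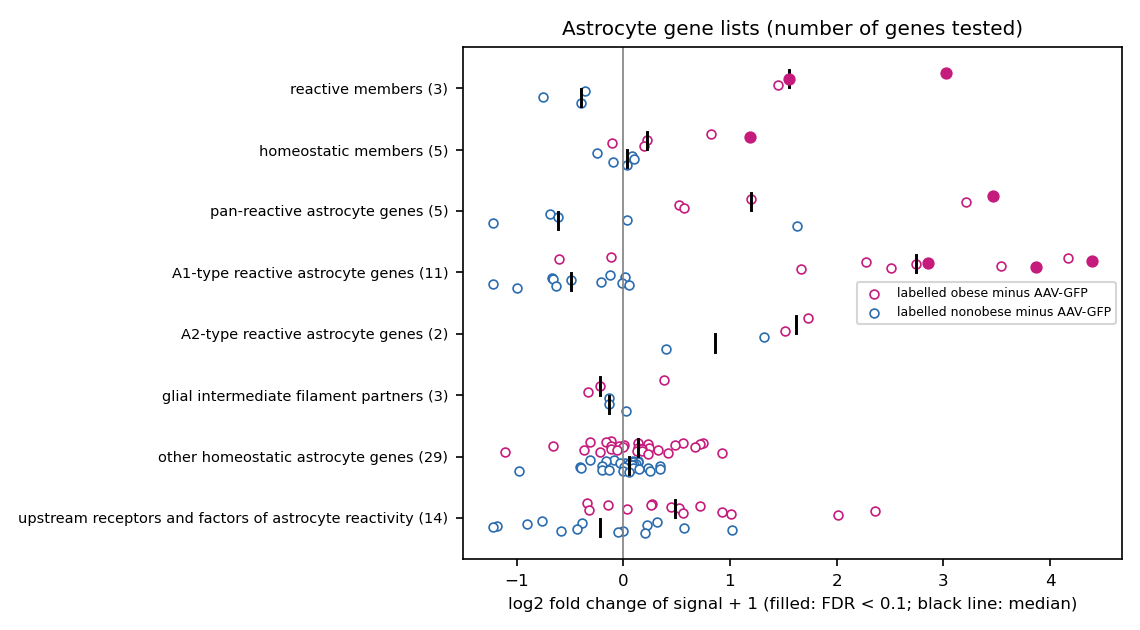
Log2 FC of signal + 1 against AAV-GFP (horizontal axis) of each gene of 8 astrocyte lists for obese-labelled mice (magenta) and nonobese (blue), filled where FDR is under 0.1, with list medians as black lines. The A1-type genes of obese-labelled mice have a median of 2.74, and the 29 other homeostatic genes a median of 0.14 and no filled point. Of all entries, 0.422% were called higher and 0.133% lower in obese-labelled mice.

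Genes with a profile most like that of 3 members were sought among 9773 genes with a mean signal of at least 10, by the root mean square difference of centered log2 values over the 9 libraries. For Gfap these were Slfn8 (0.677), Mpeg1 (0.688) and Prkcd (0.695), of which Slfn8 and Mpeg1 are known as genes of immune cells. Mpeg1 measured 152.8, 24.7 and 149.8 in obese-labelled mice and 18.5, 22.8 and 7.96 in AAV-GFP mice. For Serpina3n they were Serp1 (0.481), Pecam1 (0.491), an endothelial adhesion molecule, and Ppp1r17 (0.505). For Slc1a2 they were Serpine2 (0.0877), Capzb (0.0894) and Synj1 (0.0932). The measure is in log2 units and grows with a gene's own spread, so its sizes are not compared between members.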

How the data were processed

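RNA of laser-captured mediobasal hypothalamus from 9 male mice was sequenced. The authors mapped reads to GRCm38, and CASAVA 1.7, TopHat2 2.0.11, HTSeq, edgeR and limma are named in the submitters' processing notes. The deposited values are signal, the authors' reads per gene over a TMM-scaled library size, a form of CPM. In every library 100% of values were whole multiples of a single read's signal (tolerance 0.01), so reads were recovered for count tests, of which edgeR's quasi-likelihood test called 93 genes in mice labelled obese against AAV-GFP and limma 75. The test planned for plain CPM was kept for signal.

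Log2(signal + 1) was tested with limma 3.58.1 in R 4.3.3, with a variance trend, over the 13506 entries that reached a signal of 1 in 3 or more libraries. Alternatives were pseudocounts of 0.1 and 5, no filter or a filter at 5, no variance trend, centering on library medians, only the groups compared, a block on the replicate number, an FDR of 0.05, edgeR 4.0.16, DESeq2 1.42.0 and leaving out each mouse. Leaving out mice 1 and 3 labelled obese together was chosen after seeing the data. Procedures were tested on simulated data.

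Symbols were matched for 13446 of 13586 Ensembl identifiers, and positions come from GENCODE M21. The 8 genes and all lists were chosen with earlier results of these data known. The genes named are the 8 members, up to 3 called genes per list with the largest change in each of the comparisons of obese label with AAV-GFP and of the subsets, or else the gene with the lowest p, and the 3 genes most like Gfap, Serpina3n and Slc1a2. Pomc, Npy, Agrp, Nr5a1, Glul, Kcnj10 and Socs3 were named outside this rule. Exact permutation tests were used for single values. Mice are separate animals, and nothing in the labels gives dates or litters.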

Additional observations from a re-analysis of the deposited data

Results flagged for a closer look

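Of 18 genes examined, the change against AAV-GFP differed between the AAV-Cre subsets for 12, by the limma contrast of the subsets at an FDR under 0.1. Over all entries that contrast called 0.733% lower and 0.215% higher. Genes of the lists were named partly for a call in this same contrast, so their flags follow from that choice. Values are log2 FC of mice labelled nonobese minus obese. Of the 8 astrocyte genes, those flagged were Gfap (-3.39), Serpina3n (-2.31), Vim (-1.85) and Aqp4 (-1.11). Of the reactive lists they were Cd44 (-4.15), Gbp2 (-5.05), Psmb8 (-3.81), H2-D1 (-3.07) and Iigp1 (-4.76), of the other homeostatic genes Apoe (-0.91), and of the upstream factors Nfkb1 (-1.63) and Stat3 (-1.15). Mice 1 and 3 labelled obese held the highest values of all 12 genes, and the part of their immune gene levels was not tested.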

How the results depend on the processing

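The count of astrocyte genes called between mice labelled obese and AAV-GFP (3) was 2 (Gfap and Serpina3n) with a pseudocount of 0.1, with only the groups compared and at an FDR of 0.05. It fell to 0 without a variance trend, where limma called 5 of all entries, and to 0 without both mice 1 and 3 of the obese label, and leaving out each mouse in turn gave 0 to 4. Without the trend, the FDR of Gfap, Serpina3n and Aqp4 was 0.422, 0.41 and 0.458. Between the subsets (4 called) the count was 2 with a pseudocount of 0.1, with only the groups compared and at an FDR of 0.05. It was 0 without a variance trend and 1 to 5 leaving out each mouse in turn. Leaving out both mice 1 and 3 keeps a single obese-labelled mouse, so calls in that fit cannot show whether changes remain. With the AAV-Cre subsets combined the count was 0 to 1 (Aqp4, without mouse 2 labelled obese), and for mice labelled nonobese against AAV-GFP it was 0 throughout. The cause was not tested, except that fewer mice were fitted where mice were left out.

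Some log2 FCs changed sign. Without both mice 1 and 3, Vim and Gja1 were -0.0086 and -0.13 in mice labelled obese and -0.20 and -0.014 in the combined AAV-Cre group against AAV-GFP, and Slc1a2 and Gja1 were -0.069 and 0.23 between subsets. Slc1a2 was -0.0073 between subsets with DESeq2. Leaving out each mouse in turn moved Gfap from -1.26 to 0.20, Slc1a2 from -0.20 to 0.011, Slc1a3 from -0.073 to 0.11, Gja1 from -0.0020 to 0.27 and Aqp4 from -0.017 to 0.24 in mice labelled nonobese against AAV-GFP. Between subsets it moved Slc1a2 from -0.10 to 0.11 and Gja1 from -0.30 to 0.045. Over the settings that leave out no single mouse, 356 combinations of gene, comparison and setting kept direction and call, 19 lost the call and 2 gained it. The main fit called 3, 0, 0 and 4 of the 8 genes in the 4 comparisons, so most of the 356 had no call to lose. The 356 is therefore no measure of how stable the calls were.

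With the replicate number as a block, the counts for the 8 genes were 3, 0, 0 and 4, as without it, while those over all entries rose from 75 to 200 and from 128 to 271 for the comparisons that involve the obese label. Equal numbers mark different animals. Their deviations correlated between -0.0199 and 0.0897 over 9 pairs, and those of the other pairs between -0.0876 and 0.0396. In 10 of 18 library and group combinations the best correlation was with the own number. The paper calls the AAV-GFP controls region-matched without naming which mouse matched which. These values do not settle whether the numbers mark a pairing, and the main fit used none.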
